A study of Mus musculus with 8 samples.

Results

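The products of 6 genes set whether a leukocyte leaves a tissue or stays in it, and their transcripts were read here across the lymphocytes and monocytes of tumour-bearing mouse liver: S1pr1, S1pr5, Cx3cr1, Cxcr4, Klf2 and Cd69. They were chosen by symbol and are 6 of the 33696 genes in the deposited matrices. The livers came from mice with hepatocellular carcinoma, started at 8 to 10 weeks of age by injecting plasmids into the tail vein that carry Cas9 with a guide against Trp53, a c-Myc transposon and the SB13 transposase, and taken 4 to 5 weeks later. All mice were male C57BL/6 and homozygous for a floxed Nr4a1, the gene of the nuclear receptor Nur77. Controls (Ncr1WT, Nr4a1fl/fl) had no Cre, and the group labelled knockout (Ncr1iCre, Nr4a1fl/fl) expressed Cre from Ncr1, the gene of the receptor NKp46, which marks natural killer (NK) cells and their tissue-resident relatives, the type 1 innate lymphoid cells (ILC1). Each group had 3 mRNA libraries. Control 3 pooled 3 mice and knockout 3 pooled 2, and for the others the labels give only a biological replicate number, so that p-values measure the spread between these libraries.

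Sphingosine 1-phosphate (S1P) is abundant in blood and lymph and scarce inside tissues, and lymphocytes follow it outward through the receptors S1PR1, used mainly by T and B cells, and S1PR5, used by NK cells and by monocytes. KLF2 is a transcription factor that drives S1pr1 in T cells, and CD69, a surface protein induced by activation, binds S1PR1 and takes it off the membrane. CXCR4 holds cells near its ligand CXCL12, while CX3CR1, the receptor of fractalkine (CX3CL1), marks patrolling monocytes and cytotoxic lymphocytes that circulate.

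Cells were assigned to classes by UMIs (unique molecular identifiers, counted transcripts) of marker genes that exclude the 6 members. Of 19976 cells kept, 7437 fell in 15 classes that do not contain each other. Besides NK, ILC1-like and monocyte classes and named T subsets, these include macrophages, B cells, neutrophils, endothelial cells and hepatocytes. There were 731 NK cells, 80 ILC1-like cells, 361 classical and 177 nonclassical monocytes. T cells numbered 3027, and cells outside named T subsets stay in the T class, which as a whole is not among the 15. Levels are given as UMIs per 1000000 UMIs of the class in a library (CPM, counts per 1000000), and a mean over libraries counts those with at least 10 cells of the class. The library labelled knockout 2 kept 134 cells and control 2 kept 547, after median mitochondrial shares of 75.13% and 27.86% among their barcodes with at least 500 UMIs, against 6.68% to 10.0% in the other libraries. Knockout 2 held 25 NK cells and 2 T cells, and control 2 held 109 and 21, so of the comparisons below knockout 2 enters only that of the genotype labels in NK cells. Between 0 and 15 cell barcodes were shared by any pair of libraries. The targeted gene, Nr4a1, was read in NK cells at 89.9, 26.1 and 42.9 CPM in controls 1, 2 and 3 and at 126, 0 and 62.6 CPM in the libraries labelled knockout, so its UMIs were not lower in that group. These are counts of transcript 3′ ends, and the floxed exons are not named in the labels, so they check neither the deletion nor the labels. Ncr1, which carries Cre, was at 803, 708 and 649 CPM in the NK cells of controls and at 146, 547 and 250.4 CPM in those labelled knockout, where all 3 values lay below all controls.

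Each of the 6 genes had its own order of cell classes. S1pr5 (ENSMUSG00000045087) was highest in nonclassical monocytes, at 101 ± 29.2 CPM (SD, n = 4 libraries), followed by NK cells at 32.8 ± 9.45 CPM (n = 6) and effector CD8 T cells at 27.6 ± 13.5 CPM (n = 4). The ranges of NK and effector CD8 T cells overlapped, and nonclassical monocytes lay above both in every library. The other 11 of 14 classes, ILC1-like cells included, had means from 0 to 2.09 CPM, and no S1pr5 UMI was read in gamma delta T cells, naive-like CD8 T cells, endothelial cells or macrophages. Cx3cr1 (ENSMUSG00000052336) followed S1pr5 only in part: it was also highest in nonclassical monocytes, at 266.5 ± 14.1 CPM, but classical monocytes followed at 102.5 ± 44.4 CPM and macrophages at 78.2 ± 36.9 CPM (n = 4 each), classes with almost no S1pr5. Effector CD8 T cells came next at 48.5 ± 30.9 CPM for Cx3cr1, and NK cells were at 9.64 ± 8.15 CPM.

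S1pr1 (ENSMUSG00000045092) was highest in naive-like CD8 T cells, at 176 ± 62.2 CPM (n = 3), B cells, at 108 ± 30.8 CPM (n = 5), and CD4 T cells, at 79.0 ± 12.3 CPM (n = 3), with overlapping ranges between each and the next. Endothelial cells, which use the receptor to keep vessel walls tight, had 64.5 ± 31.9 CPM (n = 5). NK cells had 16.4 ± 8.81 CPM and classical monocytes 2.48 ± 1.77 CPM. Klf2 (ENSMUSG00000055148) was highest in neutrophils, at 2040 ± 1024 CPM (n = 6), then in naive-like CD8 T cells at 555 ± 247 CPM, and lowest in ILC1-like cells, at 28.2 and 38.3 CPM in the 2 libraries with 10 such cells, and in hepatocytes, at 6.41 ± 5.82 CPM (n = 3). From naive-like CD8 T cells down to macrophages, at 133 ± 75.0 CPM, each class overlapped the next in Klf2. The ILC1-like range lay below that of macrophages without overlap.

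Cxcr4 (ENSMUSG00000045382) was likewise highest in neutrophils, at 244 ± 157 CPM, followed by macrophages, nonclassical and classical monocytes at 89.4 ± 41.9, 78.5 ± 34.6 and 61.2 ± 18.5 CPM, with all of these ranges overlapping. T subsets lay between 12.1 CPM in NKT-like cells (cells with Zbtb16 UMIs) and 48.6 CPM in naive-like CD8 T cells, and NK cells at 15.0 ± 13.6 CPM. Cd69 (ENSMUSG00000030156) was highest in effector CD8 and gamma delta T cells, at 245.5 ± 95.9 and 235 ± 36.3 CPM, and passed through naive-like CD8 T cells at 168 ± 97.5 CPM, NK cells at 126 ± 88.4 CPM and ILC1-like cells at 113 and 36.5 CPM without a gap between neighbours. Endothelial cells and hepatocytes had 4.14 ± 3.99 and 2.50 ± 2.62 CPM of Cd69.

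**Figure D1:**
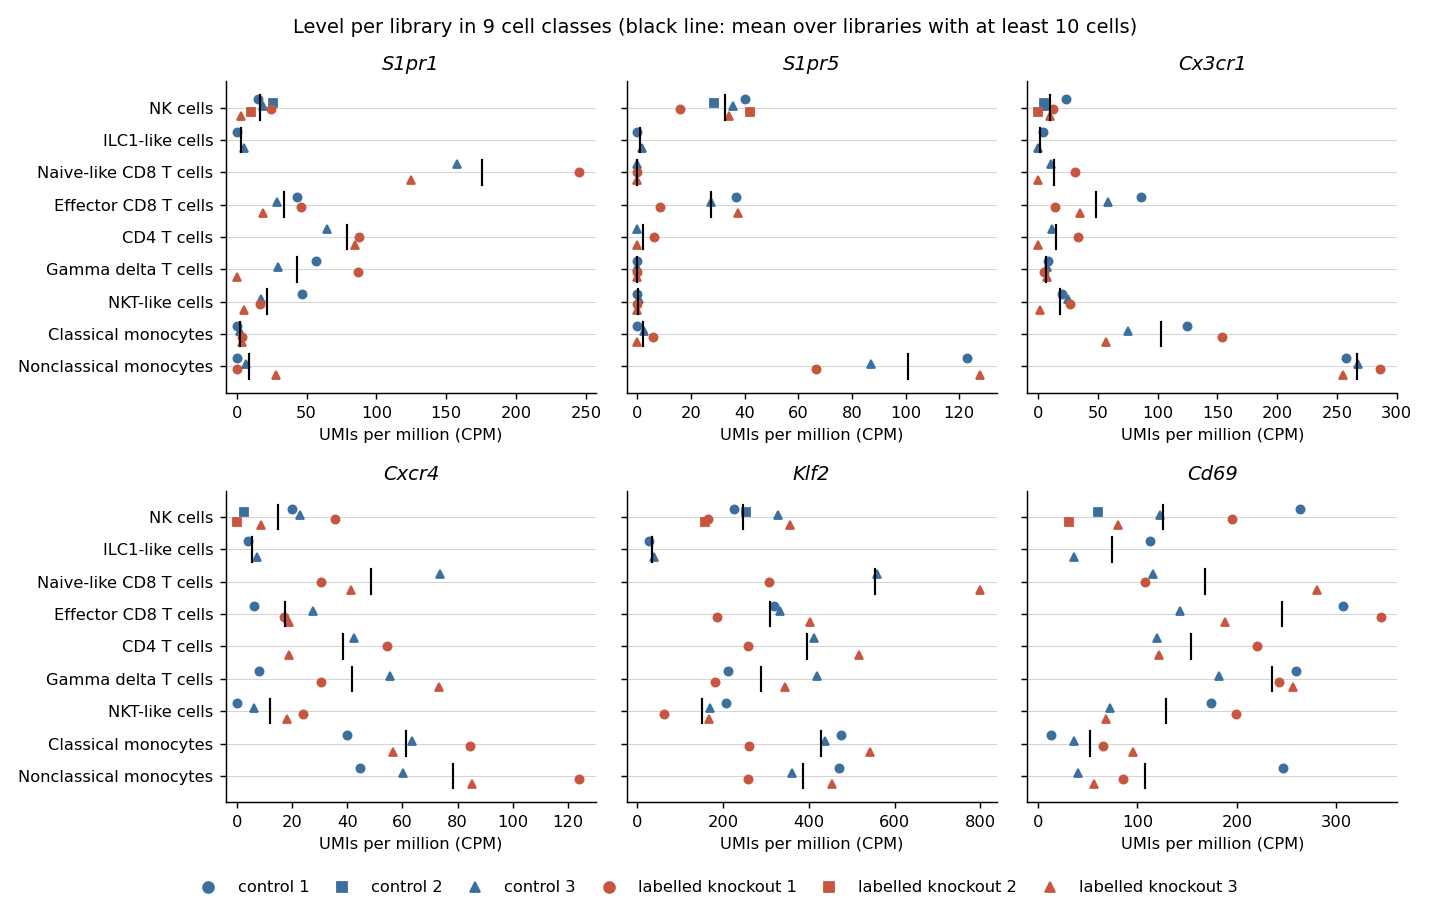
Level of each gene in CPM (x axis) in 9 cell classes (y axis), with 1 point per library that holds at least 10 cells of the class and a black line at their mean. S1pr5 stands out in nonclassical monocytes (mean 101 CPM), with NK and effector CD8 T cells next, while S1pr1 is highest in naive-like CD8 T cells (176 CPM).

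Within NK cells, S1pr5 separated the maturity classes. Mature NK cells (UMIs of Itgam, Klrg1 or Cma1 and none of Cd27, Tcf7, Kit and Emb) and less mature ones (the reverse) were compared in the 5 libraries with at least 10 cells of both, which leaves out knockout 2. S1pr5 was at 86.9, 110 and 104 CPM in mature NK cells of controls 1, 2 and 3, while knockouts 1 and 3 had 86.9 and 52.4 CPM. In less mature NK cells it was at 9.73, 0 and 17.6 CPM and at 0 and 6.24 CPM. Every mature value lay above every less mature one. The log2 difference within libraries was 3.20 (SE 0.48, adjusted p = 0.00261, edgeR quasi-likelihood test with Benjamini-Hochberg adjustment over all genes), in a comparison where 51 of 4326 genes (1.18%) passed and 0.693% were higher in mature cells. Without knockout 3 the count over all genes was 243, and it was 25 without control 1, 27 without control 2 and 29 without knockout 1, with S1pr5 as the 1 member past the threshold each time.

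Cx3cr1 and Cxcr4 were too low to pass the filter on low counts in that comparison, and their UMIs moved in opposite directions. Cx3cr1 was at 77.2, 22.1, 36.3, 38.6 and 18.5 CPM in mature NK cells of controls 1, 2 and 3 and knockouts 1 and 3, and at 3.24, 0, 1.35, 0 and 0 CPM in less mature ones. Summed over the 5 libraries these were 36 UMIs against 2, a ratio of 28.6 (95% interval 7.36 to 245, exact binomial, counting error only). Cxcr4 was at 0 CPM in mature NK cells of 4 libraries and at 13.6 CPM in control 3, and at 9.73, 7.50, 25.7, 61.6 and 24.96 CPM in less mature NK cells. Its 3 UMIs against 37 gave a ratio of 0.129 (95% interval 0.0254 to 0.407). In controls 1 and 2 the 0 in mature cells allows up to 14.5 and 33.1 CPM, above the less mature values. These libraries show no direction for Cxcr4. For Cx3cr1 the 0 in less mature cells of control 2 and knockout 3 allows up to 22.5 and 18.7 CPM, just above the mature values. Control 2 and knockout 3 thus show no direction for Cx3cr1. With no filter on low counts, the log2 difference was 4.49 (SE 0.80, adjusted p = 1.04e-05, edgeR quasi-likelihood test) for Cx3cr1, which passed, and -2.78 (SE 0.83, adjusted p = 0.0761) for Cxcr4, which did not.

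For the remaining 3 genes no difference between the maturity classes passed. S1pr1 had 10 UMIs in mature and 30 in less mature NK cells, a ratio of 0.529 (95% interval 0.231 to 1.11), and was too low for the test. Klf2 gave 0.38 (SE 0.23, adjusted p = 0.589) and was higher in mature NK cells in 3 of 5 libraries. Cd69 gave -0.30 (SE 0.49, adjusted p = 0.897), with mature values from 0 to 254 CPM and less mature ones from 31.2 to 376 CPM. Of the 3 factors of NK maturation listed beside the members, Zeb2, a repressor needed for terminal NK maturation, was higher in mature NK cells by 1.58 (SE 0.25, adjusted p = 0.00388), and Tbx21 and Eomes did not pass. Among 10 residency genes, 6 were tested and Prdm1, the gene of BLIMP1, passed, higher in mature NK cells by 1.49 (SE 0.29, adjusted p = 0.0213). Of the hepatocyte genes, 7 of the 8 were tested and all 7 were above zero, with a median log2 difference of 1.43 and none past the threshold. Their summed level ranged from 19.3 to 6786 CPM in the mature cells of these libraries and from 74.0 to 1042 CPM in the less mature ones, and its part in the results was not tested.

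**Figure D2:**
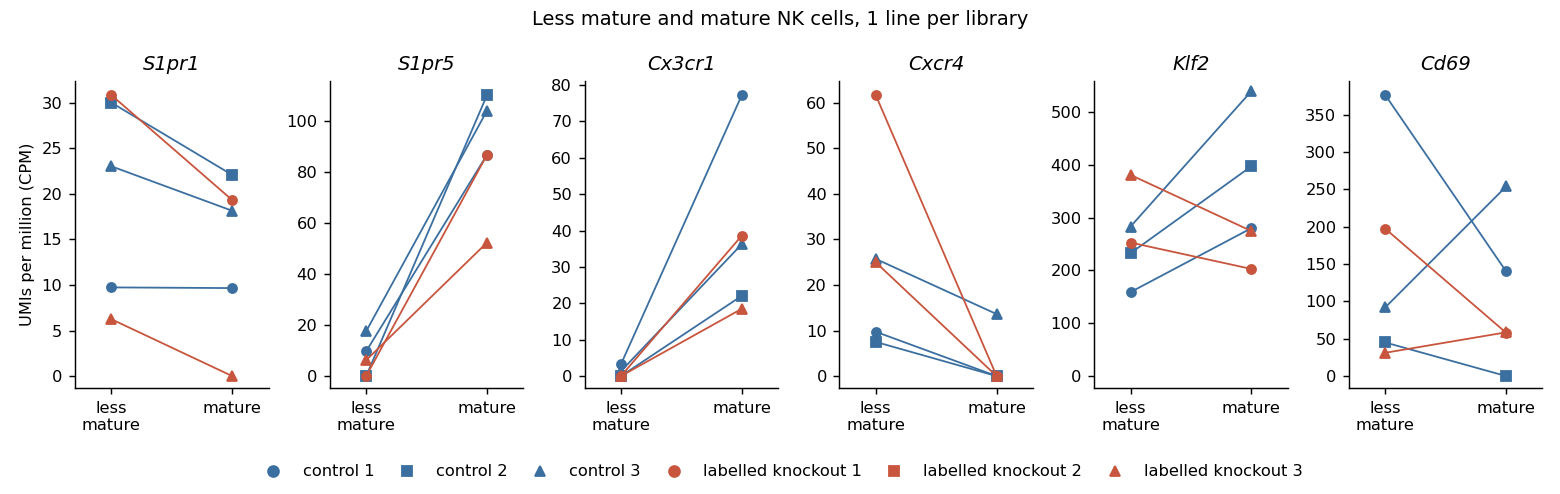
Level of each gene in CPM (y axis) in less mature and mature NK cells of the 5 libraries with at least 10 cells of both, joined by 1 line per library. The S1pr5 lines rise from at most 17.6 CPM to at least 52.4 CPM, Cxcr4 is at 0 in the mature cells of 4 libraries, and the lines of Klf2 and Cd69 cross.

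ILC1-like cells (group 1 cells with more UMIs of Cxcr6, Itga1 and Cd200r1 than of Eomes, Itga2 and 4 Klra genes) were scarce: controls had 22, 5 and 39 of them and the libraries labelled knockout 6, 0 and 8. Only 2 libraries reached 10 cells, so NK cells were compared with them at a minimum of 5 cells, in 5 libraries, a choice made after these numbers were seen. Klf2 was at 226, 254 and 327 CPM in NK cells of controls 1, 2 and 3, with 165.2 and 355 CPM for knockouts 1 and 3. In ILC1-like cells it was at 28.2 and 38.3 CPM in controls 1 and 3, with 63.4 and 75.1 CPM for knockouts 1 and 3 on 4 and 2 UMIs, and these 4 values lay below all NK values. The 5 cells of control 2, with a median mitochondrial share of 16.91%, gave 0 of 6235 UMIs, which allows up to 481 CPM and shows no direction for any of the 6 genes. The log2 difference was 2.75 (SE 0.60, adjusted p = 0.00471, edgeR quasi-likelihood test), where 71 of 7753 genes (0.916%) passed, 0.58% in this direction, and the median of all genes was 0.17. Leaving out 1 library moved that count in each case, to 28, 35 and 37 without controls 1, 2 and 3 and to 250 and 206 without knockouts 1 and 3.

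S1pr5 gave 134 UMIs in NK cells of these libraries and 1 UMI, in control 3, in ILC1-like cells, a ratio of 29.4 (95% interval 5.18 to 1168, counting error only). Its fitted log2 difference was 4.71 (SE 1.10, adjusted p = 0.0094, edgeR quasi-likelihood test). Neither gene passed without control 1 (adjusted p = 0.469 for S1pr5 and 0.0865 for Klf2, edgeR) or without control 3 (0.209 and 0.0685), and without control 2 S1pr5 did not (0.0661). S1pr5 also did not pass with RLE scaling (adjusted p = 0.0788, edgeR) or in DESeq2 (log2 difference 3.23, adjusted p = 0.184), and without the library block it fell below the filter. S1pr1 and Cxcr4 gave 1.97 (SE 1.02) and 2.09 (SE 0.98) and did not pass (adjusted p = 0.675 and 0.574, edgeR), on 4 and 5 UMIs in all ILC1-like cells. On the CPM scale Cd69 was higher in NK cells of controls 1 and 3, at 264 against 113 and 123 against 36.5 CPM. In knockouts 1 and 3 it was lower, at 195 against 254 and 80.5 against 188 CPM, the last on 5 UMIs in 1 cell. Its log2 difference was 0.68 (SE 0.54, adjusted p = 0.882, edgeR). A Cd69 UMI was found in 40.9% and 28.2% of ILC1-like cells in controls 1 and 3, against 29.0% and 29.9% of NK cells. In knockouts 1 and 3 these shares were 50.0% and 12.5%, against 35.6% and 23.8%. By share, ILC1-like cells were thus higher than NK cells in control 1 and close to them in control 3. Cx3cr1, with 45 UMIs against 1, was not tested. Of the 10 residency genes 8 were tested. Cxcr6 and Itga1, which helped to define the ILC1-like class, were lower in NK cells, and Prdm1 was higher by 3.11 (SE 0.75, adjusted p = 0.0146, edgeR). Zeb2 was higher in NK cells by 3.01, and Eomes, a defining NK gene, by 4.66. Summed hepatocyte transcripts were at 2874, 0, 7719, 95.1 and 638 CPM in ILC1-like cells of controls 1, 2 and 3 and knockouts 1 and 3, against 333, 96.7, 862, 2325 and 4403 CPM in NK cells. Summed dissociation-response transcripts were at 5026 and 5969 CPM in ILC1-like cells of knockouts 1 and 3, against 2035 and 1239 CPM in NK cells, and at 321 to 1368 CPM in those of controls, against 951 to 1689 CPM. Of these lists 2 of 8 and 4 of 10 genes were above zero, with medians of -0.57 and -0.24 and none past the threshold, and their part in the results was not tested.

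The promoters of the genes that differed between cell classes are shown because KLF2 acts on DNA through CACCC boxes and its own gene is known to be driven through an MEF2 site. Of the 6 members, 4 matched an entry of the RefSeq promoter table (GRCm38.p6), and the 250 bases before the start of S1pr5 (chr9:21248444-21248693, minus strand), Cx3cr1 (chr9:120068297-120068546, minus strand) and Klf2 (chr8:72318812-72319061, plus strand) read, 5′ to 3′ with matches in capitals:
S1pr5: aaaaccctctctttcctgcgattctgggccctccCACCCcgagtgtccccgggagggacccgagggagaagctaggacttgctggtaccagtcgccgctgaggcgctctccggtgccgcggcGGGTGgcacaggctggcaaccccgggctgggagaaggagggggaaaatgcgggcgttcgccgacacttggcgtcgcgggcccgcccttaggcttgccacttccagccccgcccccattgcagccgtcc
Cx3cr1: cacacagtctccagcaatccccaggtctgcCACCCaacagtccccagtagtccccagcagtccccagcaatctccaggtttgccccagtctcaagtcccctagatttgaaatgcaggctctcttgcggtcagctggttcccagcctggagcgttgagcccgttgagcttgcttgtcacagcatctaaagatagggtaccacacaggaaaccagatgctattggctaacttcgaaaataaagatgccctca
Klf2: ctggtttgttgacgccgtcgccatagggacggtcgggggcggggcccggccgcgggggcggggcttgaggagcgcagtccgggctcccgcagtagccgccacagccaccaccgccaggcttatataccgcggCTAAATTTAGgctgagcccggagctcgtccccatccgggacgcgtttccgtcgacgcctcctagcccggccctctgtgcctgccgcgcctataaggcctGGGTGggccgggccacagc
The capitals mark CACCC or its reverse complement GGGTG in all 3 windows, and in Klf2 also an MEF2-type site, CTAAA followed directly by its reverse complement TTTAG, which reads the same on both strands. No matches overlap. CACCC on either strand was found at 2 places in S1pr5 and at 1 place each in Cx3cr1, Klf2 and the Cxcr4 window, and 52.0% of 32851 promoter windows of this length hold it, so its presence does not set these genes apart. The MEF2-type site was found in 0.0396% of those windows. TCACAC, letters of a T-box type site, was in none of the 4 windows on either strand and in 12.3% of all.

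NK cells and T cells as whole classes differed in S1pr5 and S1pr1 transcripts, while effector CD8 T cells overlapped NK cells in S1pr5. S1pr5 was at 40.0, 28.7 and 35.6 CPM in the NK cells of controls 1, 2 and 3, then 16.0 and 34.3 CPM in knockouts 1 and 3, against 7.90, 12.1, 13.8, 2.10 and 5.09 CPM in T cells. Every NK value lay above every T value, though the T value of control 2 rested on 1 UMI in 21 cells. The log2 difference was 2.04 (SE 0.32, adjusted p = 0.00128, edgeR quasi-likelihood test), where 1055 of 9718 genes (10.9%) passed, 4.71% higher and 6.14% lower in NK cells (682 genes without control 1). S1pr1 went the other way: it was at 15.0, 26.1, 18.7, 24.9 and 2.98 CPM in NK cells and at 75.5, 60.4, 51.2, 70.5 and 53.6 CPM in T cells. It was lower in NK cells in 5 of 5 libraries, with -2.01 (SE 0.29, adjusted p = 0.000798, edgeR).

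Klf2 did not part NK from T cells, with -0.18 (SE 0.11, adjusted p = 0.452, edgeR) and 1 of 5 libraries higher in NK cells. Cd69 gave -0.50 (SE 0.19, adjusted p = 0.154), Cx3cr1 -0.96 (SE 0.48, adjusted p = 0.312) and Cxcr4 -0.35 (SE 0.28, adjusted p = 0.602). With no filter on low counts Cd69 passed (adjusted p = 0.0168, edgeR). Of the genes of the KLF2 and FOXO1 egress programme, Il7r, Ccr7 and Klf3 passed in edgeR and were lower in NK cells, with log2 differences of -3.97, -2.75 and -0.78. Of the 11 genes of S1P metabolism and its other receptors 6 were tested, with a median of 0.02 and none past the threshold. Of 9 tested residency genes Cxcr6, Itgae and Itga1 were lower in NK cells, by -5.01, -2.42 and -1.43, and Prdm1 was higher by 0.64. Gna13, a G protein subunit, was lower by -0.55, and of the maturation factors Eomes and Zeb2 were higher by 2.06 and 1.72. Of 10 dissociation-response genes, which rise when tissue is taken apart, Junb, Dusp1 and Hspa1a were lower in NK cells and Atf3 was higher, and their part in the results was not tested.

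Among cells with a CD8 gene, S1pr1 marked the naive-like class. Naive-like CD8 T cells (UMIs of naive T cell genes such as Ccr7 or Lef1 and no effector UMIs) and effector CD8 T cells (the reverse, with Ccl5, Nkg7, granzyme and related UMIs) could be compared in control 3, knockout 1 and knockout 3. S1pr1 was at 158, 245 and 125 CPM in naive-like and at 28.7, 46.0 and 18.8 CPM in effector cells of these libraries, without overlap. The log2 difference was 2.60 (SE 0.37, adjusted p = 8.41e-05, edgeR quasi-likelihood test), where 957 of 4255 genes (22.5%) passed, a share against which 2 passing members of 3 tested are to be read. Klf2 was at 558, 306 and 799 CPM against 332, 187 and 403 CPM and was higher in naive-like cells by 0.94 (SE 0.27, adjusted p = 0.0173). Without knockout 3 Klf2 did not pass (adjusted p = 0.165, edgeR), nor with no filter on low counts (0.170).

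S1pr5 was absent from the UMIs of naive-like CD8 T cells: 0 of 256573 UMIs in these 3 libraries, against 109 of 4070815 in effector CD8 T cells, which makes effector cells at least 2.29-fold higher if 3 UMIs are allowed over the naive-like group. Cx3cr1 had 3 UMIs in naive-like and 215 in effector cells, a naive-to-effector ratio of 0.221 (95% interval 0.0453 to 0.656, counting error only), lower in naive-like cells in 2 of 3 libraries and higher in knockout 1. Cxcr4 had 13 against 106 UMIs, a ratio of 1.95 (1.00 to 3.47), and these 3 genes were below the filter. Cd69 did not differ beyond the spread (-0.22, SE 0.38, adjusted p = 0.714, edgeR). Foxo1, Klf3, Klf13 and Il7r of the egress list passed and were higher in naive-like cells, by 1.68, 3.13, 1.00 and 4.36, and Rgs1, Prdm1 and Bhlhe40 of the residency list were lower, by -3.57, -4.10 and -3.45, while Itgae was higher by 2.52. Ccr7 also passed but had helped to define the class, and Cxcr6 and Itga1, which define ILC1-like cells, were lower. Tbx21 and Zeb2 were lower in naive-like cells by -4.29 and -3.36 and Gnai2, a G protein subunit that S1P receptors signal through, by -1.28, and Pecam1 of the endothelial list, also a T cell gene, was higher by 3.86. Of the dissociation-response genes 7 were tested, and Fos and Jun were higher in naive-like cells by 1.48 and 0.96, with their part in the results not tested.

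The remaining T subsets were described by their levels alone. CD4 T cells had S1pr1 at 64.9, 87.7 and 84.4 CPM in control 3, knockout 1 and knockout 3, and Cxcr4 at 42.6, 54.4 and 18.8 CPM. Regulatory T cells reached 10 cells only in control 3, where S1pr1 was at 142 CPM and Klf2 at 392.5 CPM. In gamma delta T cells of controls 1 and 3 and knockouts 1 and 3, Cd69 was at 259.5, 182, 243 and 256 CPM, the narrowest spread of that gene among the T subsets with 4 libraries. S1pr1 in the same cells ranged from 0 CPM in knockout 3 to 86.9 CPM in knockout 1. NKT-like cells had the lowest Klf2 of the T subsets, at 207, 170, 61.5 and 166.1 CPM, and S1pr5 at 0.67 CPM in control 3 and 0 in the other libraries.

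Nonclassical monocytes carried both S1pr5 and Cx3cr1. They were set against classical monocytes (Ly6c2, Chil3, F13a1 and Ccr2) in controls 1 and 3 and knockouts 1 and 3, called by UMIs of Ace, Treml4, Cd300e, Adgre4, Eno3 and Spn. S1pr5 was at 123.0, 86.9, 66.8 and 128 CPM in nonclassical and at 0, 2.44, 5.91 and 0 CPM in classical monocytes. The log2 difference was 4.75 (SE 0.73, adjusted p = 0.000189, edgeR quasi-likelihood test), where 1058 of 4437 genes (23.8%) passed (611 without knockout 1). Its 40 UMIs against 4 gave a ratio of 34.4 (95% interval 12.4 to 132, counting error only). Cx3cr1 was at 257, 267.5, 286 and 255 CPM against 124, 75.6, 154 and 56.7 CPM and was higher by 1.27 (SE 0.26, adjusted p = 0.0021, edgeR).

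In neither gene did the monocyte classes overlap. Klf2 (-0.30, SE 0.20), Cxcr4 (0.17, SE 0.33) and Cd69 (0.76, SE 0.52) did not pass (adjusted p = 0.305, 0.753 and 0.322, edgeR), and S1pr1 had 3 and 4 UMIs and was not tested. Control 1 held the highest nonclassical Cd69, 246 CPM, against 40.1 to 85.8 CPM in the others, and without it the Cd69 difference was -0.19. Itgb7 and Ahr were lower in nonclassical monocytes by -1.42 and -1.28, Gnai2 was lower by -0.92, and Rgs1 and Pecam1 were higher by 1.03 and 1.93, all past the threshold in edgeR. Dissociation-response genes moved with these classes: 5 of 10, Ier2, Fos, Jun, Junb and Egr1, were lower in nonclassical monocytes, with a median of -0.63, and their part in the results was not tested. Neutrophil genes were uneven as well: their summed level in classical monocytes was 21740 and 12990 CPM in control 1 and knockout 1 and 12.2 and 60.2 CPM in control 3 and knockout 3, carried by 2 of the 5 listed genes, S100a8 and S100a9, and 6.69 to 38.1 CPM in nonclassical monocytes. Of the neutrophil genes 2 were tested and 2 passed in edgeR, lower in nonclassical monocytes, with a median log2 difference of -8.72. The part of this signal in the results was not tested.

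**Figure D3:**
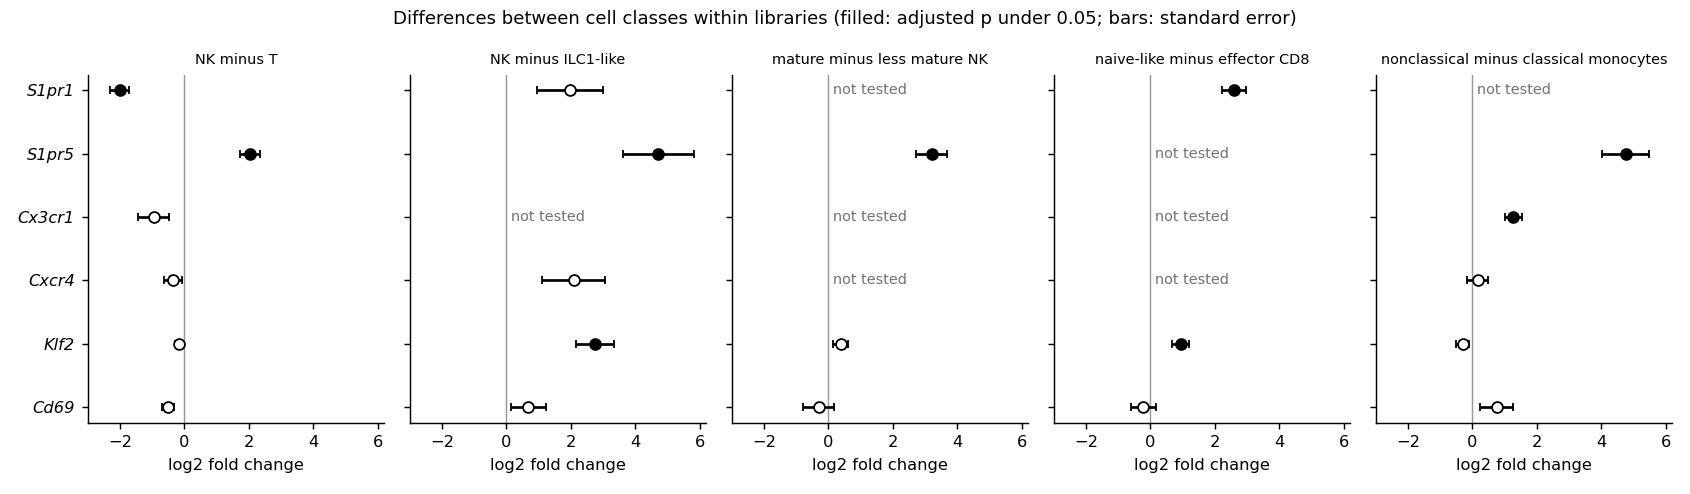
Log2 fold change (x axis) of each gene between 2 cell classes of the same libraries, with standard errors as bars and filled points where the adjusted p of the edgeR quasi-likelihood test is under 0.05. S1pr5 is to the right in each of the 4 contrasts where it was tested (2.04 to 4.75), and S1pr1 is on opposite sides in NK minus T (-2.01) and naive-like minus effector CD8 (2.60).

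The share of cells with a UMI gave the same order of NK and T cells for both receptors, although it depended on depth. At the depth of the data S1pr5 was found in 13.5% ± 3.84 of NK cells (SD, n = 6 libraries) and in 3.69% ± 2.10 of T cells (n = 5), and S1pr1 in 7.06% ± 4.59 and 24.0% ± 3.78. In B cells, a class in which S1pr5 serves as background, the share was 0.0595% ± 0.0817 (n = 5). Median depths per library ran from 1985 to 5553 UMIs in NK cells, 3594.5 to 5333 in T cells and 1978 to 3060 in B cells. Thinned to 1000 UMIs a cell, S1pr5 was found in 4.96% ± 2.83 of NK cells, 0.916% ± 0.831 of T cells and 0.014% ± 0.0313 of B cells, and S1pr1 in 1.65% ± 1.35 of NK and 7.12% ± 1.83 of T cells. The thinning left out 20 and 11 NK cells, 24 and 12 T cells and 5 and 5 B cells of the control and knockout-labelled libraries. Thinned shares of the others in NK and T cells were 1.61% and 2.79% for Cx3cr1, 1.15% and 2.17% for Cxcr4, 21.4% and 27.1% for Klf2 and 9.25% and 16.9% for Cd69.

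No member passed the test between the genotype labels in any class that could be fitted. In NK cells 5 of the 6 were tested, and 0 of 7042 genes (0%) passed in edgeR, where 519 had an unadjusted p under 0.05 and DESeq2 called 1. The count over all genes was 346 with the replicate number as a block and 305 without knockout 2, and 0 members passed in either. In counts simulated for this comparison over 7099 genes, 78.1% of 96 genes changed 4-fold were recovered and 11.2% of 89 changed 2-fold. False calls numbered 6 in each case, beside 75 and 10 genes recovered. A 2-fold difference in a member could thus be missed. S1pr5 was at 40.0, 28.7 and 35.6 CPM in the control libraries, against 16.0, 42.1 and 34.3 CPM for knockouts 1, 2 and 3, means of 34.8 ± 5.66 and 30.8 ± 13.4 CPM, with the highest and the lowest value both in the libraries labelled knockout. The highest, in knockout 2, rested on 4 UMIs in 25 cells. The log2 value for S1pr5 was -0.31 for knockout-labelled against control (SE 0.38, adjusted p = 0.929, edgeR). S1pr1 was at 15.0, 26.1 and 18.7 CPM against 24.9, 10.5 and 2.98 CPM, with -0.49 (SE 0.57, adjusted p = 0.923). The groups overlapped, and the lowest value, in knockout 3, rested on 2 UMIs and that of knockout 2 on 1 UMI.

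Cd69 in NK cells was at 264, 60.1 and 123.1 CPM in controls, and the libraries labelled knockout had 195, 31.6 and 80.5 CPM. In CPM the library with that label was lower than the control of the same number in 3 of 3 pairs, while the groups overlapped. The share of NK cells with a Cd69 UMI was 29.0%, 8.26% and 29.9% in controls, against 35.6%, 8.0% and 23.8%. By that share replicate 1 went the other way. The knockout 2 value rested on 3 UMIs in 2 cells. The log2 fold change of Cd69 was -0.35 (SE 0.54, adjusted p = 0.942, edgeR). Klf2 was at 226, 254 and 327 CPM against 165.2, 158 and 355 CPM, with -0.15 (SE 0.37, adjusted p = 0.977). Cxcr4 was at 19.98, 2.61 and 22.9 CPM against 35.5, 0 and 8.94 CPM, with 0.14 (SE 0.63, adjusted p = 0.988). Cx3cr1 was not tested and was at 23.7, 5.23 and 6.04 CPM against 12.4, 0 and 10.4 CPM. The share of mature among NK cells was 33.7%, 29.4% and 18.9% in controls, against 25.4%, 24.0% and 35.2% with the knockout label. Within mature NK cells S1pr5 gave -0.34 (SE 0.41, adjusted p = 0.676, edgeR), where 0.125% of 3988 genes passed, and within less mature NK cells, where 0.032% of 3124 genes passed, no member did. Summed hepatocyte transcripts in NK cells were at 96.7 to 862 CPM in controls and at 221 to 4403 CPM in the libraries labelled knockout, 8 of 8 of these genes were above zero with a median of 2.30 and none passed, and their part in the results was not tested.

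In T cells 0 of 11700 genes (0%) passed in edgeR, where 114 had an unadjusted p under 0.05 and DESeq2 called 2. The count over all genes was 24 with the replicate block and 10 without knockout 1, with 0 members in either. All 6 members were tested, and S1pr5 and Cx3cr1 had the largest differences among them. S1pr5 was at 7.90, 12.1 and 13.8 CPM in T cells of controls 1, 2 and 3, against 2.10 and 5.09 CPM for knockouts 1 and 3, with -1.63 (SE 0.58, unadjusted p = 0.0202, adjusted p = 1, edgeR). The groups did not overlap. In control 2, with 21 T cells, the S1pr5 value rested on 1 UMI and the Cx3cr1 value below on 2 UMIs in 1 cell. Cx3cr1 was at 16.7, 24.2 and 40.5 CPM against 18.4 and 9.28 CPM, with -1.08 (SE 0.45, unadjusted p = 0.0426, adjusted p = 1). Effector CD8 T cells made up 14.7%, 4.76% and 37.97% of T cells in controls and 10.7% and 12.04% in knockouts 1 and 3, and the part of this share in the results was not tested. Within effector CD8 T cells S1pr5 gave -0.34 (SE 0.64) and Cx3cr1 -1.42 (SE 0.46), with unadjusted p = 0.608 and 0.0169 and adjusted p = 1.00 for both in edgeR. The rest of the members in T cells lay between -0.07 and 0.34 and did not pass. Of the dissociation-response genes 10 of 10 were above zero in T cells, with a median of 0.42 and none past the threshold. Neutrophil genes were above zero in 2 of 2 tested, with a median of 2.66, and their sum was 435 CPM in knockout 3 and 0 to 13.8 CPM in the other 4 libraries. Hepatocyte genes were above zero in 7 of 8, with a median of 0.61 and sums of 217.5 to 2464 CPM in controls and 552 and 2924 CPM in knockouts 1 and 3. The part of these signals in the results was not tested.

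In classical monocytes 0 of 5223 genes (0%) passed in edgeR, where 223 had an unadjusted p under 0.05 and DESeq2 called 0. The count over all genes was 40 with the replicate block, 216 when control 1 was left out, 25 without control 3, 5 without knockout 1 and 89 without knockout 3, with 0 members each time. Cd69 was at 13.3 and 36.6 CPM in controls 1 and 3, against 65.0 and 95.7 CPM for knockouts 1 and 3. Its log2 value was 1.48 (SE 0.51, unadjusted p = 0.0144, adjusted p = 0.999, edgeR). The control 1 value rested on 3 UMIs in 3 cells, the limit allowed for a count of 0. The share of cells with a Cd69 UMI was 4.41% and 10.0% in controls 1 and 3, against 11.3% and 10.5% in knockouts 1 and 3. Cx3cr1, Cxcr4 and Klf2 gave 0.08, 0.37 and -0.25. Hepatocyte genes were below zero in 6 of 6 tested, with a median of -2.41 and none past the threshold, and their part in the results was not tested. Over the 9 classes fitted, 37 pairs of a member and a class were tested, 5 had an unadjusted p under 0.05 and 0 passed. Some classes contain others, so Cx3cr1 counts in T cells and again in effector CD8 T cells. Over all genes such a p was found in edgeR for 114 of 11700 in T cells and 223 of 5223 in classical monocytes. In effector CD8 T cells it was 124 of 5252 and in NKT-like cells 47 of 7662. The share was highest in mature NK cells, 736 of 3988, where no member had such a p. The fifth pair was Cxcr4 in NKT-like cells, with 2.01 (SE 0.83, edgeR), which did not pass. It was at 0 and 6.06 CPM in controls 1 and 3, against 24.0 and 18.3 CPM for knockouts 1 and 3. The 0 in control 1 allows up to 20.1 CPM, above the knockout 3 value. ILC1-like, naive-like CD8, CD4 and regulatory T cells had too few libraries with 10 cells for the comparison of genotype labels.

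The difference between the genotype effects in NK and T cells was also tested, since Cre is under Ncr1. Part of the T class had Ncr1 UMIs too. In control 1 these were in 15.1% of T cells, 37.5% of gamma delta, 23.3% of NKT-like and 2.86% of effector CD8 T cells. The T gate did not exclude UMIs of group 1 genes. T cells with Ncr1 and NK cells or doublets with T cell UMIs therefore cannot be told apart here. In the test 0 of the 6 members passed, while 13 of 9718 genes (0.134%) did, 0.0206% in the negative direction. Among those 13 was the hepatocyte gene Apoc3 (4.03, SE 0.67, adjusted p = 0.0399, edgeR), and 8 of 8 hepatocyte genes were above zero with a median of 1.91, whose part in the results was not tested. For S1pr5 the difference (NK minus T) was 1.13 (SE 0.57, adjusted p = 0.59, edgeR), for Cx3cr1 1.11 (SE 0.89, adjusted p = 0.805) and for S1pr1 -0.58 (SE 0.60, adjusted p = 0.874). Cxcr4, Klf2 and Cd69 gave -0.29, 0.12 and -0.44. That count over all genes was 122 with the replicate block, 333 when control 1 was left out, 0 without control 2, 2 without control 3, 86 without knockout 1 and 228 without knockout 3, with 0 members each time.

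**Figure D4:**
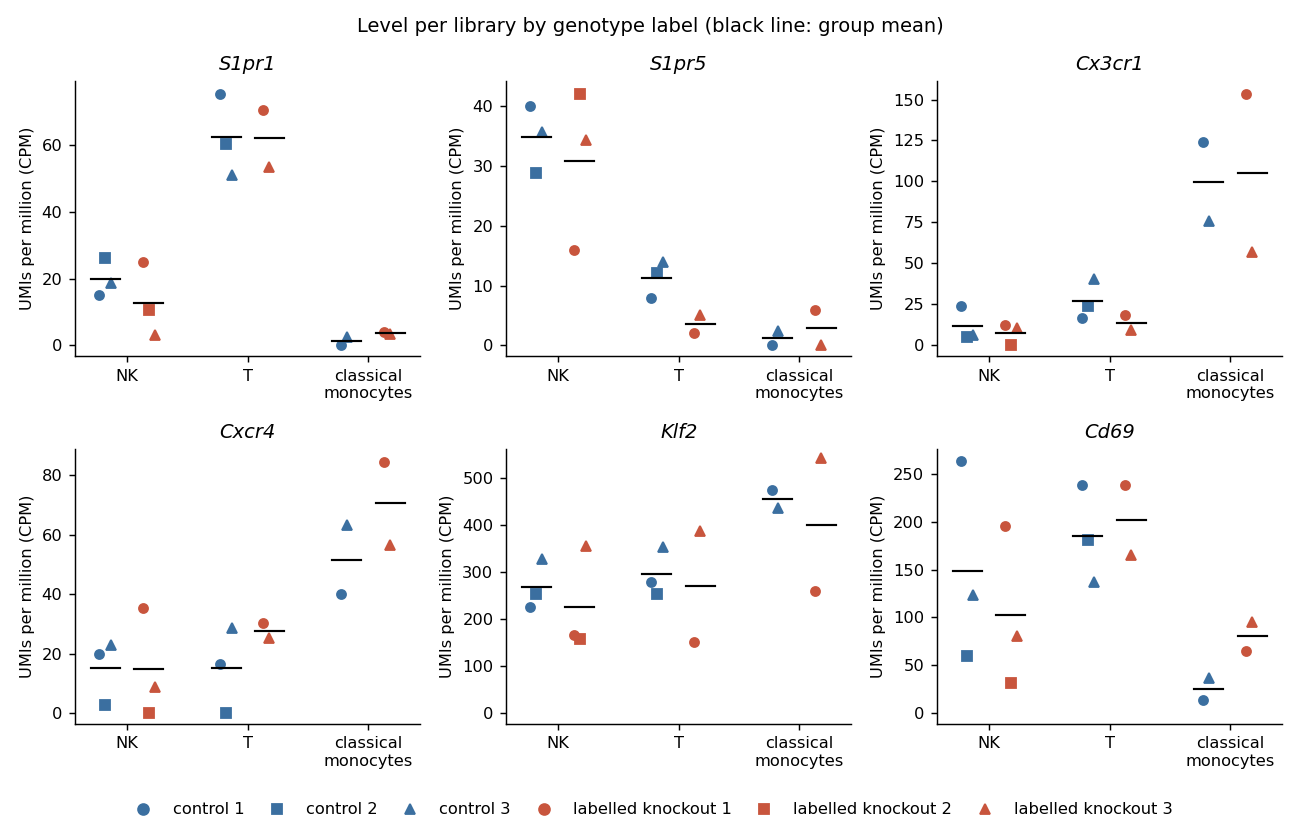
Level of each gene in CPM (y axis) in NK cells, T cells and classical monocytes, with 1 point per library, control libraries in blue, libraries labelled knockout in red and black lines at group means. In T cells S1pr5 is lower in both libraries labelled knockout (2.10 and 5.09 CPM) than in the 3 controls (7.90 to 13.8 CPM). The control 2 value there is 1 UMI. In NK cells the groups overlap for each of the 6 genes.

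The ligand side was read in the non-immune cells of the same libraries. Cxcl12, the ligand of CXCR4, was at 78.0, 120, 35.6, 35.9 and 34.6 CPM in endothelial cells of controls 1, 2 and 3 and knockouts 1 and 3, and at 88.0, 56.9 and 65.4 CPM in hepatocytes of controls 1 and 3 and knockout 3. Ackr3, a scavenger of CXCL12, was at 17.97, 92.3, 37.5, 4.38 and 6.50 CPM in endothelial cells, with both libraries labelled knockout below the 3 controls, a difference that was not tested. Spns2, the exporter that supplies S1P from endothelium, was at 17.4, 27.3, 25.7, 17.5 and 17.8 CPM there. Cx3cl1, the ligand of CX3CR1, was nearly unread, with 0, 1, 6, 1 and 0 UMIs in endothelial cells. Apom, which carries S1P in plasma, was at 643, 624 and 682 CPM in hepatocytes of controls 1 and 3 and knockout 3.

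Across 14 class means (on the log2(CPM + 1) scale, from the same libraries and with classes of unequal depth) the members correlated most for Cxcr4 and Klf2, with a Pearson r of 0.866, and least for S1pr1 and Cx3cr1, at -0.243. S1pr5 and Cx3cr1 gave 0.483, and Klf2 and S1pr1 gave 0.079. Among genes whose highest class mean was at least 20 CPM, Klf2 was most like Sertad3, Marchf7 and Phf20l1 (r from 0.938 to 0.969), and Cd69 most like Slc28a2, Akna and Traf3ip3 (0.956 to 0.98). Cxcr4 was most like Zc3h12a, Skil and Snx20 (0.939 to 0.949), and Cx3cr1 most like Ms4a6d, Mdm2 and Cept1 (0.902 to 0.913). S1pr1 was most like Tbxa2r, Ccser2 and Arv1 (0.872 to 0.894), and S1pr5 most like Dnah12, Nab1 and Dnajc14 (0.738 to 0.778). These are descriptions over 14 points.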

How the data were processed

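Droplet 3′ mRNA counts were read from 6 libraries. The deposited matrices hold raw UMI counts, which the authors produced per gene and barcode. Per the file headers, Cell Ranger 7.0.1 wrote replicates 1 and 2 of both groups, and 9.0.1 wrote replicate 3. The submitters' processing notes name 9.0.1 and GRCm39. Hashtag counts sit in the matrices numbered 3 and stayed out of library sizes.

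A barcode was kept from 500 UMIs and 300 genes upward if mitochondrial UMIs did not exceed 20%. In replicate 3, whose matrices also hold empty droplets, barcodes less than 4 SDs below the likelihood of 200 simulated free-RNA profiles per depth were dropped, and the highest Scrublet scores (scanpy 1.11.5) were removed at 0.8% per 1000 cells. Kept cells numbered 2639, 547 and 9102 in controls, against 2715, 134 and 4839 with the knockout label, and gene UMIs of kept cells ran from 887170 to 81059980 per library. Intervals and the limit of 3 UMIs for a count of 0 cover counting error only.

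T cells needed 2 UMIs of Cd3d, Cd3e, Cd3g and Trac and none of defining B cell, phagocyte, macrophage or endothelial genes. UMIs of group 1 genes were allowed in them. NK and ILC1-like cells needed 3 UMIs of 12 group 1 genes, 1 of them from the 7 defining genes, none of other lineages, and more UMIs of their own markers than of the other class. Monocytes needed 3 UMIs of phagocyte genes and 2 of their subset genes. Ncr1 was left out of the gate. These thresholds were set after class sizes and member values were seen (Trbc1 and Trbc2 were dropped from the T gate because NK cells carry their UMIs), and the members and lists were chosen with earlier results of these data known.

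UMIs were summed per library and class with at least 10 cells and tested with edgeR 4.0.16 in R 4.3.3 (quasi-likelihood, two-sided, TMM, filterByExpr, Benjamini-Hochberg over all genes, threshold 0.05), with library as a block between classes. Positive values mean higher in the first class named or in the libraries labelled knockout. Standard errors were derived as the size of the log2 change divided by the square root of F. The test was checked on simulated counts with 200 changed genes, of which 89 to 96 per run were counted for recovery. DESeq2 1.42.0, RLE scaling, no filter, other gates, other cell minimums, mice as units (by hashtag) and leaving out libraries were alternatives. Named genes were the 6 members, the passing members of each list and the 3 genes most like each member, and a list with none passing is given by its counts, although the rule would also name its gene of smallest p. Replicate numbers pair the libraries, although the labels do not say why: deviations of same-numbered NK libraries from their group means correlated at 0.366, 0.43 and 0.328. The values of 1 listed gene are not reported here.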

Additional observations from a re-analysis of the deposited data

Results flagged for a closer look

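Cd69 stood out because its CPM differed between the genotype labels in opposite directions in different cells. In NK cells the library labelled knockout was lower than the control of the same number in 3 of 3 pairs (by 68.2, 28.5 and 42.6 CPM), and in classical monocytes it was higher in 2 of 2 pairs, by 51.7 and 59.1 CPM. The mean differences of the cell classes were 101.8 CPM apart (NK minus monocytes: -101.8). This difference was not tested, and neither the NK nor the monocyte change passed alone. The knockout 2 value in NK cells rested on 3 UMIs in 2 cells. By share of cells with a UMI, NK cells had 29.0%, 8.26% and 29.9% in controls, against 35.6%, 8.0% and 23.8% with the knockout label. Replicate 1 thus went the other way by share. Classical monocytes had 4.41% and 10.0% in controls 1 and 3, against 11.3% and 10.5% in knockouts 1 and 3. In nonclassical monocytes the Cd69 differences of replicates 1 and 3 were -160.2 and 16.6 CPM. With 1 UMI of other lineages allowed in the gate, the NK difference in Cd69 turned to 0.41 on the log2 scale.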

How the results depend on the processing

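Depth limits the members most in small classes: knockout 2 held 95068 UMIs in its NK cells, and a member with no UMI there may lie at up to 31.6 CPM. The number of members past the threshold between genotype labels was 0 under each alternative run for NK, T, classical monocyte and other classes, and for the difference between NK and T cells, with leave-one-out counts also 0. With the replicate block 0 members passed too, while the count over all genes rose from 0 to 346 in NK cells, 24 in T cells and 40 in classical monocytes, and from 13 to 122 for the difference. Without knockout 2 it was 305 in NK cells. With no filter it was 451, 12 and 156 in NK cells, T cells and monocytes and 261 for the difference. Leaving out libraries it ran from 5 to 216 in monocytes, 25 to 243 between NK maturity classes and 28 to 250 against ILC1-like cells. DESeq2 called 522 genes between CD8 classes and 598 between monocytes.

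Between maturity classes of NK cells the count of members was 1, 2 with no filter (Cx3cr1 joined S1pr5) and 0 without the library block, where S1pr5 fell below the filter, and leaving out libraries gave 1. In monocytes it was 2 and with DESeq2 1, since DESeq2 gave S1pr5 no adjusted p. In CD8 T cells it was 2, and 1 to 2 leaving out libraries. With no filter S1pr5 passed there in place of Klf2. In NK against ILC1-like cells it was 2, and 1 (Klf2, with S1pr5 lost) with RLE scaling, with DESeq2 and without the library block, and 0 to 2 leaving out libraries. NK against T cells kept 2 in each leave-out. Not run for lack of libraries was the minimum of 20 cells for CD8 and ILC1-like cells.

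Signs turned only for differences that had not passed. In NK cells between genotype labels Cd69 was 0.41 with 1 foreign UMI allowed, and Cxcr4 was -0.14 with the replicate block and -0.00094 without both libraries numbered 2. In T cells S1pr1 was -0.0027 with 1 foreign UMI and Klf2 0.14 with mice as units. In classical monocytes Cx3cr1 was -0.0099 with 1 foreign UMI, -0.083 with the replicate block and -0.034 with mice as units, where Klf2 was 0.025. Cd69 was 0.0099 between NK maturity classes at 20 cells and 0.020 between CD8 classes with 1 foreign UMI, and Cxcr4 between monocytes was -0.063 with no filter. The Klf2 difference between NK and T effects was -0.0063 with no filter and -0.10 with mice as units.

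Leaving out single libraries, genotype values in NK cells ran from -2.12 to 0.20 for S1pr1, -0.77 to 0.075 for S1pr5, -1.14 to 0.62 for Cxcr4, -0.77 to 0.056 for Klf2 and -1.14 to 0.27 for Cd69. In T cells they ran from -0.13 to 0.29 for S1pr1, -0.95 to 0.49 for Klf2 and -0.048 to 0.51 for Cd69, and in classical monocytes from -0.82 to 0.58 for Cx3cr1 and -0.88 to 0.22 for Klf2. Cd69 ran from -1.06 to 0.19 between NK maturity classes, -0.85 to 0.31 between CD8 classes and -0.19 to 1.21 between monocytes. NK-minus-T effects ran from -2.50 to 0.17 for S1pr1, -0.39 to 2.41 for Cx3cr1, -1.42 to 0.33 for Cxcr4 and -0.039 to 0.24 for Klf2.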
